A study of Mus musculus with 100 samples.

Results

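The major histocompatibility complex (MHC) class II loci were followed through ChIP-seq of 8 factors and of H3K27ac, an acetylated form of histone H3 found at active promoters and enhancers, in mouse macrophages. The 7 genes were Ciita, Cd74, H2-Aa, H2-Ab1, H2-Eb1, H2-DMa and H2-DMb1, and the regions taken were all those whose nearest annotated gene in the 15 deposited count tables was one of them. This gave 280 of 610301 regions, of which 279 passed the filter on low counts. Ciita had 103 of them, Cd74 61, H2-DMa 36, H2-DMb1 31, H2-Aa 18, H2-Ab1 17 and H2-Eb1 14. A region is assigned by distance alone, so a nearest gene is not shown to be the gene a region acts on.

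Macrophages were differentiated from bone marrow of C57BL/6 mice (BMDMs), and every group had 2 libraries. NCoR, HDAC3, p65, Fosl2, PU.1, PGC1β, ERK1 and p300 were profiled in Wild type BMDMs given vehicle (Veh) or Kdo2 lipid A (KLA, a ligand of the lipopolysaccharide receptor TLR4) for 6 h. NCoR and PGC1β were also profiled after KLA with an ERK inhibitor (ERKi), with DMSO controls for PGC1β alone, and p300 and ERK1 in Wild type bone marrow cells at Day0 and Day4 of osteoclast differentiation. H3K27ac was profiled with Veh or KLA in BMDMs of genotype NCoR flox/flox (labelled WT) or NCoR flox/flox LysMCre (NKO), in PGC1b flox/flox BMDMs with or without LysMCre, and in Wild type BMDMs given DMSO and Veh, DMSO and KLA, or the HDAC3 inhibitor RGFP966 and KLA. LysMCre acts in myeloid cells and was absent from the flox controls. No ages were given in the labels.

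MHC class II molecules present peptides from engulfed material to CD4 T cells. The α and β chains are encoded by H2-Aa and H2-Ab1, and H2-Eb1 encodes the β chain of the second mouse class II molecule. Cd74 encodes the invariant chain that escorts them, H2-DMa and H2-DMb1 encode the 2 chains of the dimer that exchanges the invariant chain peptide for antigen, and Ciita encodes the coactivator that class II transcription depends on. CIITA does not bind DNA itself but docks on proteins at the X box and the CCAAT box of class II promoters. In macrophages these genes are known to be induced by interferon-γ.

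The promoters below show where those boxes lie, with matches to an X box core (AACNGATG) and to CCAAT on either strand in capitals. They run from 250 bases before to 50 after the start site (RefSeq, GRCm38.p6). Of 32851 promoters of that length, 2.32% held the X box core, 37.41% held CCAAT and 0.88% held both. H2-Eb1 and H2-DMb1 held both, and H2-Aa held CCAAT without this X box core. H2-DMa has 2 promoters in the table, not printed here; the first held neither and the second CCAAT alone. The promoters of H2-Ab1, Cd74 and Ciita were not analysed here.

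H2-Eb1, chr17:34305617-34305916, + strand: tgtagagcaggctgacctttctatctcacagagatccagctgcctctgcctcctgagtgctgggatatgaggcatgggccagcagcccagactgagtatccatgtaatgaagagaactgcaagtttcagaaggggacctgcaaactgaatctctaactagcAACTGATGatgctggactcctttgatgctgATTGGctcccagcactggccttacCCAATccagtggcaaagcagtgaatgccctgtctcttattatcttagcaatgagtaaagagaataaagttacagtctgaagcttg

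H2-DMb1, chr17:34152941-34153240, + strand: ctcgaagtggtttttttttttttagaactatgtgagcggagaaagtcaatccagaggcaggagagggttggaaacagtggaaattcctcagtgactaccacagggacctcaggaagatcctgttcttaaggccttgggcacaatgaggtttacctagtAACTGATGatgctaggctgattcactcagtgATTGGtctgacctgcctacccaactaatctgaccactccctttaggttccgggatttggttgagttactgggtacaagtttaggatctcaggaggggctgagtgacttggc

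H2-Aa, chr17:34287774-34288073, - strand: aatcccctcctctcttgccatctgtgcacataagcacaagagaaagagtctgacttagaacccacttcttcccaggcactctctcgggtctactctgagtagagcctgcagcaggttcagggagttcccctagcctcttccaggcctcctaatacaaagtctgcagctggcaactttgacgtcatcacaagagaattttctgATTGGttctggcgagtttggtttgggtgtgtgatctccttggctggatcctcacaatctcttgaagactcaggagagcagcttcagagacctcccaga

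Some regions bound by p65, the activating subunit of NFκB, are given next as the 200 bases around their centre (mm10, + strand). They are a selection from the gains and the copies described below, and other regions that gained p65 are not printed. Capitals mark a κB consensus in the first 3, and an AP-1 consensus (TGANTCA) in the H2-DMb1 pair; the Ciita -1.2 kb window held no match to the κB, AP-1 or PU.1 (GAGGAAG) letters searched on both strands. The κB consensus was found in 5 of 33 member windows (15.15%) and in 7.61% of all 52624 p65 windows, and AP-1 in 6 (18.18%) against 21.7%. The PU.1 letters were found in 8 (24.24%) against 21.97%. The Ciita +8.5 kb window also held the X box core letters, not in capitals here. A match is a description of the letters and not of binding.

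Ciita +8.5 kb, chr16:10498217-10498416: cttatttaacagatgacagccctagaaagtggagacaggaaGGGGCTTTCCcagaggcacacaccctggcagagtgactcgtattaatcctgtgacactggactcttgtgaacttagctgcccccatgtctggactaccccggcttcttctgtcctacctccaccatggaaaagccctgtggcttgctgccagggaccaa

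H2-Ab1 -1.5 kb, chr17:34261652-34261851: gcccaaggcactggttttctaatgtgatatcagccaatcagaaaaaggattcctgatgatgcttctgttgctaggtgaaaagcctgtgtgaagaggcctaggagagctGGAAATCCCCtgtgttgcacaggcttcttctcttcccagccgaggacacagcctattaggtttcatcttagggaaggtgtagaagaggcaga

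H2-Aa -8.6 kb, chr17:34296245-34296444: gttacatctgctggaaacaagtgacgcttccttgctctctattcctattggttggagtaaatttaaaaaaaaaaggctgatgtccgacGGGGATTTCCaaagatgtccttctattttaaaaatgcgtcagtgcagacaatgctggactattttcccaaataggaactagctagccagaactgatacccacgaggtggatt

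Ciita -1.2 kb, chr16:10486899-10487098: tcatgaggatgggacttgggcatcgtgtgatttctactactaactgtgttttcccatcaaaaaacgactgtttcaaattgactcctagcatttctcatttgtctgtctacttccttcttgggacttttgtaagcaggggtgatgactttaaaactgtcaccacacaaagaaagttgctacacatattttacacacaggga

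H2-DMb1 -2.9 kb, chr17:34150203-34150402: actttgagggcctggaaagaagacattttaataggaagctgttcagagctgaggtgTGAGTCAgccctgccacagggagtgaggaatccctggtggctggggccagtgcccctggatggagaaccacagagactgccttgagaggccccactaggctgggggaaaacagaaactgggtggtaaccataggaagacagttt

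H2-DMb1 +6.0 kb, chr17:34159083-34159282: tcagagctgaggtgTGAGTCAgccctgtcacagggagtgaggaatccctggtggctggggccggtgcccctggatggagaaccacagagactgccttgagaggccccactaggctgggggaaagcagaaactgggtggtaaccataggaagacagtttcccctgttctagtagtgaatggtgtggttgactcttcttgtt

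The last 2 regions are near-identical copies. Their aligned parts shared 192 of 197 bases (97.5%), so reads may have been split between them, and values at both are uncertain.

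Library totals ran from 4.30 M tags (Fosl2 KLA replicate 1) to 21.5 M. Values below are tags per 10 M of the library total stated by the authors, and replicates are given in the order 1, 2. A region was called when the edgeR quasi-likelihood test gave a Benjamini-Hochberg adjusted p under 0.05 over all regions of its table and the change exceeded 2-fold; log2 fold changes are given ± SE. The Fosl2 KLA replicate 1 library had 0 tags in 5 of 20 member regions and in 11.76% of all Fosl2 regions, against 0 of 20 and 1.1% in replicate 2, so Fosl2 values after KLA rest on unlike libraries. HDAC3 KLA replicate 2 held 5.69 M tags against 17.1 M in replicate 1. It was the higher of these libraries at every HDAC3 gain called below. Of the BMDM markers, 6 of 6 macrophage genes (Csf1r, Adgre1, Itgam, Mertk, Fcgr1 and C5ar1) had an H3K27ac region within 2 kb of the start in the RGFP966 table, with medians of 41.0 to 444. Of these 6, 4 had one in the NCoR flox/flox table, and Csf1r and Adgre1 had no region. Dendritic cell genes had 2 of 6 in the RGFP966 table, at medians of 0.739 and 3.85, and B and T cell genes had no region.

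Scaling bore on direction. Relative to library totals, the median log2 fold change of all regions with KLA was 1.46 for p65, 0.65 for p300, 0.27 for HDAC3 and -0.41 for PU.1. It was between -0.14 and 0.24 in every comparison once libraries were scaled by TMM, which assumes that most regions do not change. Calls that TMM scaling ends are named as such below. The plot of called shares sets the member regions beside all regions.

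**Figure D1:**
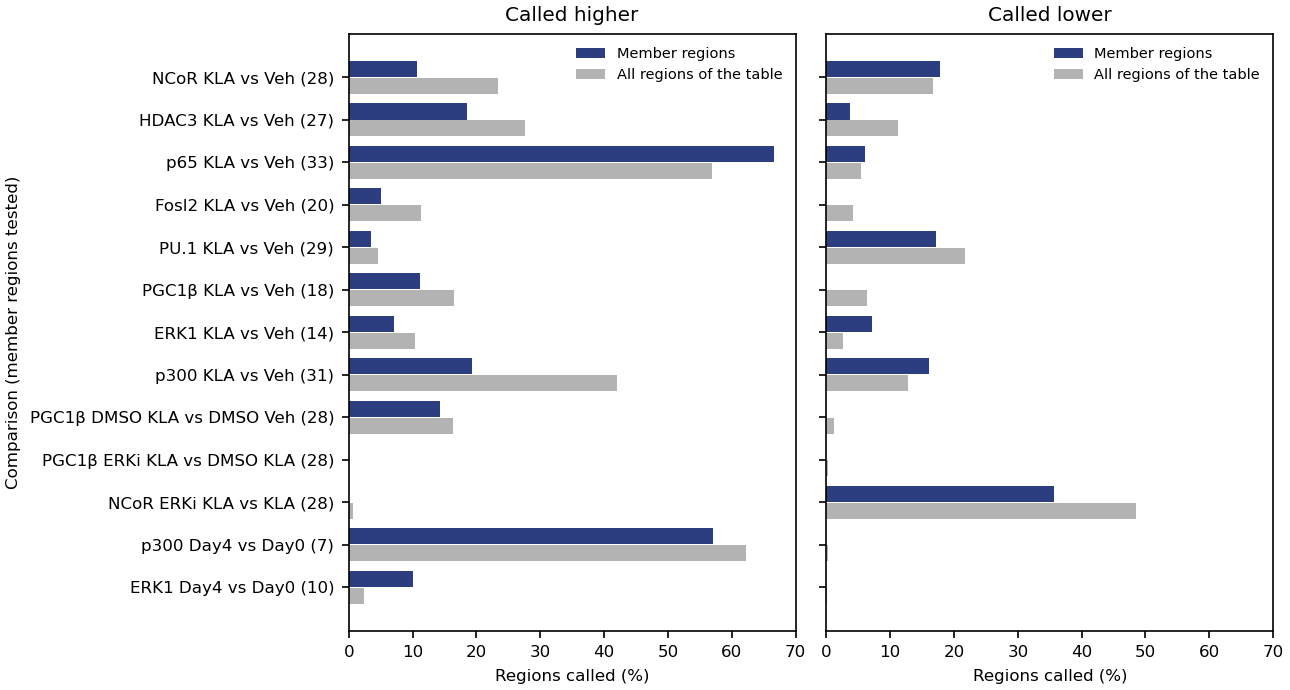
Percentage of regions called higher (left) or lower (right) in each factor comparison, with the number of member regions tested in brackets; dark bars are the member regions and grey bars all regions of the same table. For p65, 22 of 33 member regions were called higher with KLA, beside 57.0% of all p65 regions.

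Ciita, the class II coactivator gene, has annotated starts at chr16:10480072, 10488178 and 10489781 on the + strand, and its regions both gained and lost factors. The intronic region 8.53 kb downstream of the third start (chr16:10498122-10498507 over all factors) was called higher with KLA in all 7 factors that had a region there, and PU.1 had none. The log2 changes ran from 1.43 to 3.29. Its κB match is in capitals above.

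p65 at this region was 41.1 and 24.2 with Veh and 301 and 344 with KLA (log2 3.29 ± 0.27, adjusted p = 3.45e-06). HDAC3, a histone deacetylase, was 49.5 and 50.9 with Veh and 158 and 216 with KLA (1.88 ± 0.37, adjusted p = 3.63e-06). NCoR, the corepressor that binds HDAC3, was 66.9 and 62.4 with Veh and 194 and 156 with KLA (1.43 ± 0.24, adjusted p = 0.000981). In each of these the lowest KLA library lay above the highest Veh library.

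The acetyltransferase p300 was 63.9 and 40.1 with Veh and 135 and 149 with KLA (1.45 ± 0.22, adjusted p = 3.95e-05). PGC1β, a coactivator, was 12.9 and 13.0 with Veh and 56.8 and 33.7 with KLA (1.77 ± 0.42, adjusted p = 0.00513). In separate libraries with DMSO it was 13.0 and 26.2 with Veh and 111 and 65.5 with KLA (2.22 ± 0.43, adjusted p = 0.000713). None of these pairs of groups overlapped either.

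Fosl2, an AP-1 protein, was 19.7 and 36.7 with Veh and 107 and 268 with KLA (2.72 ± 0.80, adjusted p = 0.00718). The kinase ERK1 was 4.72 and 10.4 with Veh and 35.7 and 39.5 with KLA (2.24 ± 0.67, adjusted p = 0.0485). The ERK1 call was lost under TMM (2.03, adjusted p = 0.070) and without either KLA library or Veh replicate 1. The p300 change fell to 0.93 under TMM, under 2-fold. The HDAC3, Fosl2 and PGC1β calls were each lost without either Veh library (adjusted p = 0.11 and 0.11 for HDAC3, 0.89 and 0.67 for Fosl2, and 0.069 and 0.074 for PGC1β), where the single remaining Veh library is assumed to vary like the other group. The direction stayed positive in all 7 under TMM.

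The intronic region 1.19 kb upstream of the second start (chr16:10486780-10487131) gained in 5 of 7 factors and was above 0 in all 7. p65 was 41.1 and 15.8 with Veh and 271 and 282 with KLA (3.26 ± 0.33, adjusted p = 1.44e-05). p300 was 50.8 and 33.5 with Veh and 193 and 190 with KLA (2.18 ± 0.21, adjusted p = 2.35e-07). PGC1β was 9.40 and 14.9 with Veh and 60.1 and 45.2 with KLA (2.08 ± 0.41, adjusted p = 0.00124). The groups lay far apart in all 3, and the PGC1β call was lost without Veh replicate 1 (adjusted p = 0.054). In the DMSO libraries PGC1β was 20.3 and 42.3 with Veh and 111 and 130 with KLA (1.99 ± 0.44, adjusted p = 0.00239), lost without Veh replicate 1 too (adjusted p = 0.071).

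PU.1, the myeloid lineage factor, was 72.4 and 58.5 with Veh and 136 and 141 with KLA (1.07 ± 0.14, adjusted p = 5.33e-12). It was the 1 member region of 29 called higher for PU.1, where 4.53% of all regions were, and without Veh replicate 2 it fell under 2-fold (0.94). HDAC3 was 91.7 and 92.3 with Veh and 181 and 249 with KLA (1.21 ± 0.36, adjusted p = 0.00313), under 2-fold with TMM (0.93) and without KLA replicate 2 (0.97), and lost without either Veh library. NCoR (0.71 ± 0.23, adjusted p = 0.0277) and Fosl2 (1.56 ± 0.70, adjusted p = 0.116) were not called, though Fosl2 was called under TMM (1.64, adjusted p = 0.0021).

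**Figure D2:**
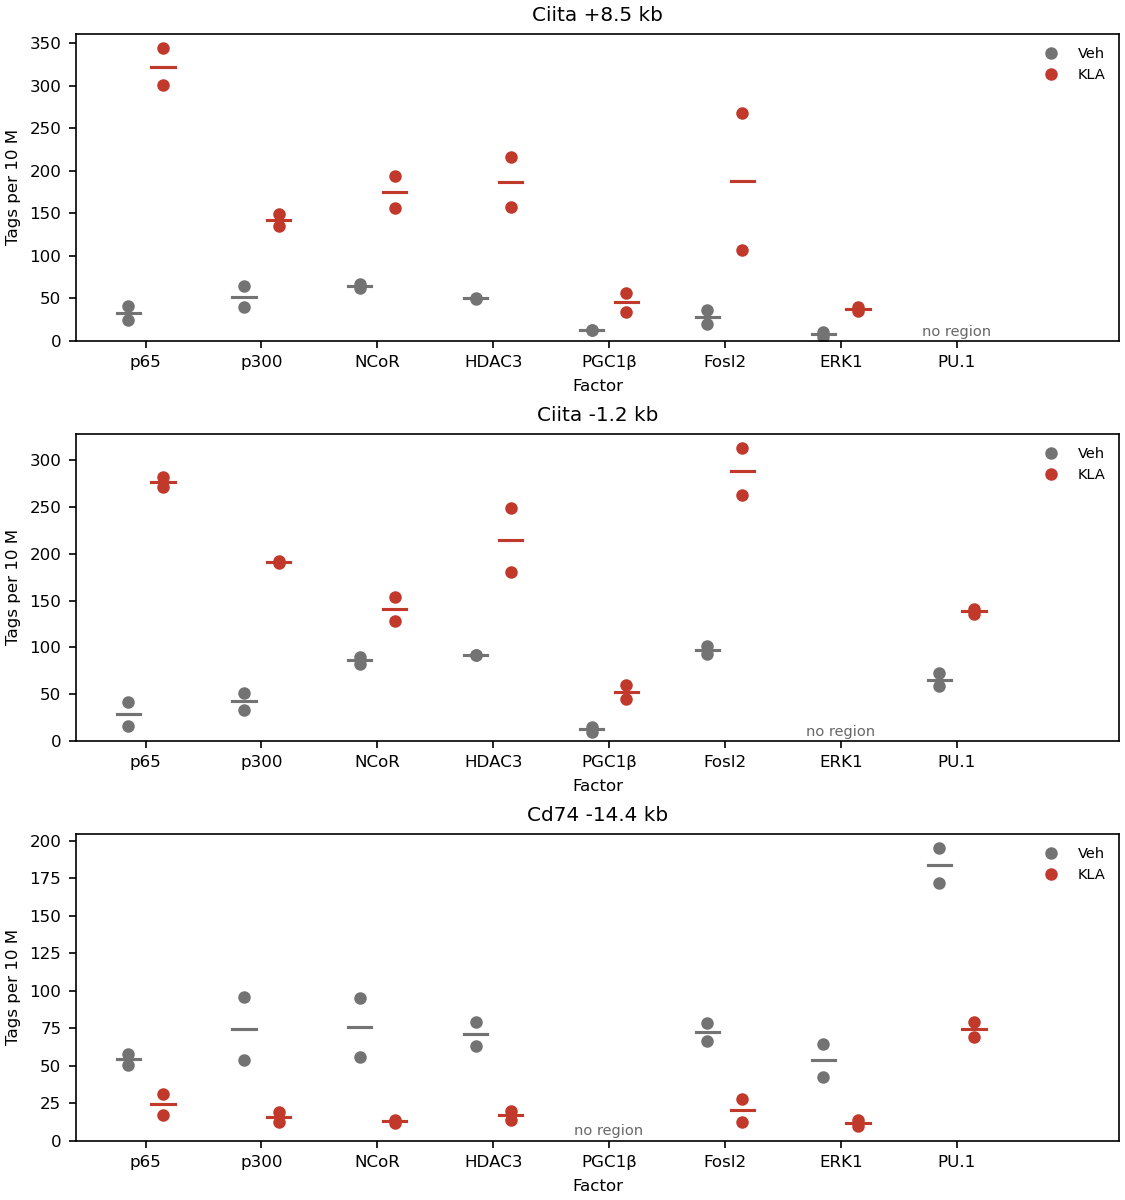
Tags per 10 M of each factor (x axis) at Ciita +8.5 kb, Ciita -1.2 kb and Cd74 -14.4 kb, with each library a point and the mean of 2 a bar, grey for Veh and red for KLA. All KLA libraries lie above all Veh libraries at the 2 Ciita regions and below them at the Cd74 region.

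At the first Ciita start the direction was the opposite. p300 there was 32.0 and 33.5 with Veh and 11.3 and 5.40 with KLA (-1.96 ± 0.46, adjusted p = 0.00154). PU.1 was 103 and 103 with Veh and 39.3 and 35.1 with KLA (-1.47 ± 0.17, adjusted p = 1.46e-13). NCoR was 54.97 and 65.9 with Veh and 30.0 and 21.4 with KLA (-1.24 ± 0.37, adjusted p = 0.0181), a call lost without either KLA library (adjusted p = 0.083 and 0.22). The groups did not overlap in these 3, and all 8 regions at this start were below 0.

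PU.1 also fell at the second start (159 and 164 with Veh, 73.9 and 75.2 with KLA, -1.11 ± 0.13), 0.43 kb after it (120 and 134, then 52.3 and 52.3, -1.28 ± 0.15) and 5.40 kb after the third (248 and 248, then 107 and 116, -1.15 ± 0.10). With the first start and Cd74 -14.4 kb these are the 5 of 29 member regions called lower for PU.1, beside 21.7% of all PU.1 regions. Under TMM the first start alone kept a change over 2-fold (-1.06), and the others ran from -0.70 to -0.90. NCoR also fell 5.39 kb after the third start, from 45.4 and 100 to 14.6 and 24.9 (-1.86 ± 0.46, adjusted p = 0.00739), a call lost without KLA replicate 1 (adjusted p = 0.091).

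p300 fell 2.47 kb after the first start, from 87.1 and 65.7 to 35.8 and 36.8 (-1.07 ± 0.26, adjusted p = 0.00183), and was under 2-fold without Veh replicate 1 (-0.86). Under TMM alone p300 was called lower 3.96 kb before the first start (-0.83 in the fit reported, -1.355 under TMM). The same held 0.11 kb before the second (-0.998, then -1.515) and 5.40 kb after the third (-0.61, then -1.13). p65 was called higher at 7 of 11 Ciita regions, where 57.0% of all p65 regions were. Of these, 11.16 kb after the third start it rose from 5.25 and 5.59 to 41.4 and 38.3 (2.86 ± 0.52), and 6.49 kb after it from 22.8 and 39.2 to 114 and 118 (1.91 ± 0.32), the latter not called under TMM (0.70, adjusted p = 0.064). The p65 gain 13.46 kb before the first start (2.25) was not called under TMM (1.05). Neither was that 0.08 kb before the second (1.115, and -0.10 under TMM) or 0.50 kb before the third (1.56, and 0.34). HDAC3 rose 3.97 kb before the first start, from 103 and 96.2 to 148 and 306 (1.16 ± 0.36), with KLA replicate 2 alone above 200 and under 2-fold without it (0.57) and with TMM (0.81). Without either Veh library that call was lost.

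**Figure D3:**
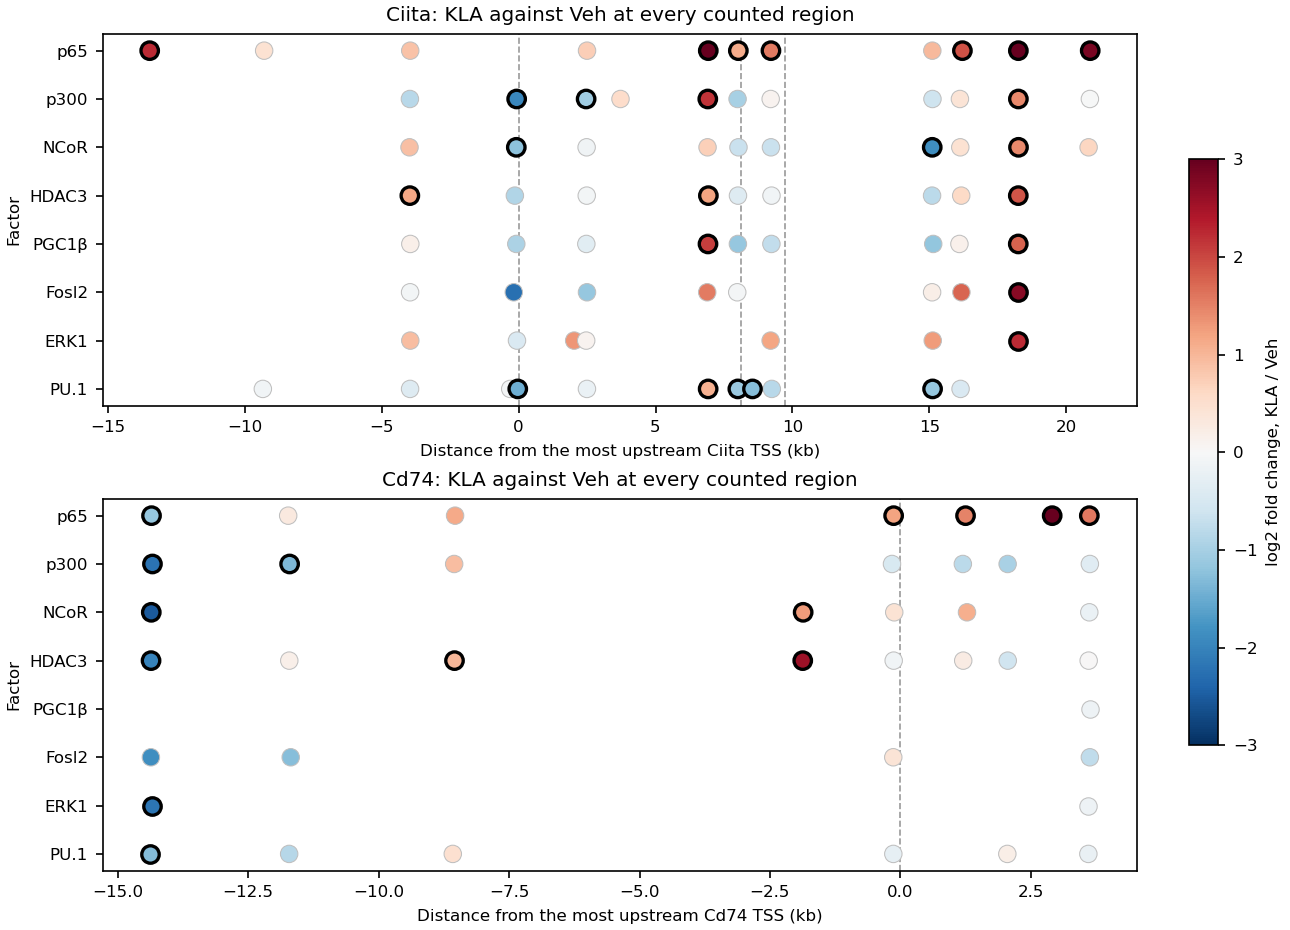
Every counted region of Ciita (top) and Cd74 (bottom), by distance in kb from the most upstream start site (x axis) and factor (y axis), coloured by the log2 fold change with KLA; black rings mark calls and dashed lines start sites. The most factors were called higher at the 2 intronic Ciita regions described above. The most were called lower at the first Ciita start and 14.4 kb upstream of Cd74, and other gains and losses were called elsewhere.

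Cd74, which encodes the invariant chain, has its start at chr18:60803849, and the region 14.4 kb upstream (chr18:60789321-60789690, intergenic) lost signal. It was called lower in 6 of the 7 factors with a region, at log2 changes of -1.16 to -2.53, and Fosl2, the seventh, was also below 0. NCoR was 56.2 and 95.3 with Veh and 12.2 and 13.8 with KLA (-2.53 ± 0.41, adjusted p = 0.000923). p300 was 95.9 and 53.9 with Veh and 19.4 and 12.4 with KLA (-2.23 ± 0.35, adjusted p = 4.76e-05). HDAC3 was 79.3 and 63.0 with Veh and 19.9 and 14.0 with KLA (-2.0 ± 0.46, adjusted p = 7.92e-05). No group overlapped the other.

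PU.1 there was 195 and 172 with Veh and 79.2 and 69.5 with KLA (-1.31 ± 0.12, adjusted p = 9.82e-19). ERK1 was 42.5 and 64.7 with Veh and 9.84 and 13.6 with KLA (-2.19 ± 0.57, adjusted p = 0.0288). p65 was 50.8 and 57.8 with Veh and 31.4 and 17.1 with KLA (-1.16 ± 0.41, adjusted p = 0.0262), against gains at most of its regions. Fosl2 was 66.3 and 78.6 with Veh and 27.9 and 12.9 with KLA (-1.87 ± 0.90, adjusted p = 0.152).

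The ERK1 call was lost without Veh replicate 2 or either KLA library, the p65 call without either KLA library (adjusted p = 0.065 and 0.28), and the HDAC3 call without Veh replicate 1 (adjusted p = 0.065). PU.1 was under 2-fold with TMM (-0.90). In the DMSO libraries PGC1β was 34.1 and 68.5 with Veh and 35.5 and 17.9 with KLA (-0.94 ± 0.60, adjusted p = 0.301), with overlapping groups.

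H3K27ac over the 1000-bp window at this region (chr18:60788964-60789964) moved the same way. It was 57.3 and 53.2 with DMSO and Veh, and 15.5 and 14.3 with DMSO and KLA (-1.88 ± 0.32, adjusted p = 3.11e-08). With RGFP966 and KLA it was 79.0 and 73.2, above the DMSO KLA libraries (2.34 ± 0.31, adjusted p = 1.15e-12) and above the DMSO Veh libraries in every pair of values. Both calls held without each library in turn and under TMM (-1.46 and 2.00). One of the 2 tested Cd74 regions was thus called lower with KLA, where 28.1% of all regions were, and both higher with RGFP966, where 26.9% were.

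The other window, 3.64 kb inside Cd74 (chr18:60806989-60807989, intron), was 94.7 and 83.7 with DMSO and Veh, and 67.3 and 51.3 with DMSO and KLA (-0.58 ± 0.25, adjusted p = 0.0394, under 2-fold). With RGFP966 and KLA it was 178 and 129 (1.36 ± 0.24, adjusted p = 8.09e-08). The RGFP966 libraries were the highest of the 3 groups at both windows. The comparisons share the DMSO KLA libraries.

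**Figure D4:**
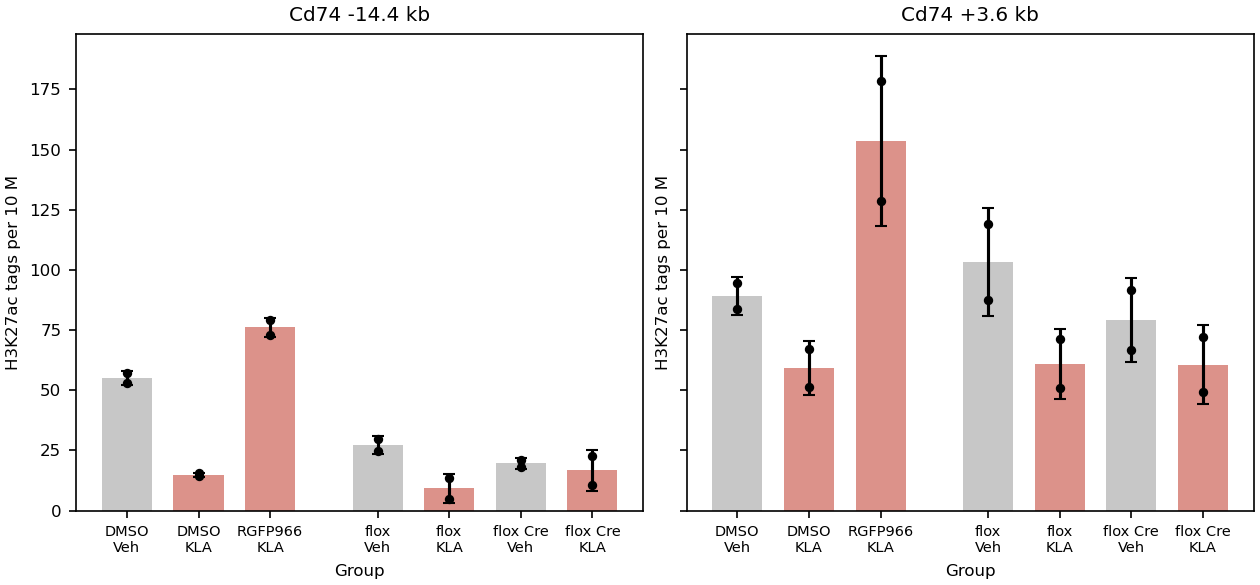
H3K27ac tags per 10 M (y axis) in the windows 14.4 kb upstream and 3.6 kb downstream of the Cd74 start, by group; bars are means of 2 libraries, error bars the SD and points the libraries, red for KLA. The DMSO KLA libraries are at 15.5 and 14.3 in the upstream window, and the RGFP966 KLA libraries at 79.0 and 73.2.

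In the PGC1b flox/flox BMDMs the upstream window was 24.7 and 29.8 with Veh and 13.5 and 4.96 with KLA (-1.55 ± 0.43, adjusted p = 0.000752), 1 of 2 regions called lower beside 25.6% of all. The call was lost without KLA replicate 2 (-1.0, adjusted p = 0.068) and with DESeq2. With LysMCre it was 18.1 and 21.2 with Veh and 10.8 and 22.8 with KLA (-0.21 ± 0.41, adjusted p = 0.673), where 36.7% of all regions were called in either direction. The difference between these KLA responses was 1.34 ± 0.60 (adjusted p = 0.109), not called, where 5.37% of all regions were. KLA replicate 2 of the LysMCre cells lay above both of their Veh libraries and replicate 1 below them. Neither region was called in these cells by edgeR or DESeq2, and 0 of 2 had an unadjusted p under 0.05.

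The window at 3.64 kb fell from 87.5 and 119 to 50.8 and 71.3 in flox cells (-0.75 ± 0.19, adjusted p = 0.000303, under 2-fold), and was 66.7 and 91.5 with Veh and 49.1 and 72.3 with KLA with LysMCre (-0.37 ± 0.20, adjusted p = 0.0991). Both LysMCre changes turned positive under TMM (0.41 upstream and 0.24 at 3.64 kb). Between genotypes 0 of 2 regions were called with Veh, where 0.397% of all were, and 0 of 2 with KLA, where 7.52% were. By the edgeR test, 1 of the 2 with Veh, 0 with KLA and 1 in the interaction had an unadjusted p under 0.05, and 0 were called by DESeq2. Under TMM the upstream window was called higher with LysMCre than without it after KLA (0.87 in the fit reported, 1.27 under TMM, adjusted p = 0.034).

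Elsewhere at Cd74, 1.86 kb before the start, HDAC3 rose from 8.73 and 7.74 to 29.3 and 73.8 (2.56 ± 0.56, adjusted p = 3.52e-05), and NCoR from 10.8 and 12.9 to 30.8 and 26.98 (1.27 ± 0.48, adjusted p = 0.0497). The NCoR call was lost without either KLA library. PGC1β with DMSO was 7.31 and 0 with Veh and 59.2 and 44.7 with KLA (3.54 ± 0.82, adjusted p = 0.00338), a size that rests on the Veh library at 0 (2.80 to 8.09 as each library was left out). HDAC3 rose too 8.55 kb before the start, from 33.5 and 33.2 to 41.6 and 98.3 (1.00 ± 0.42), a gain of 0.32 without KLA replicate 2, and the call was lost without either Veh library and under TMM (0.66).

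p65 rose at 4 of 7 tested Cd74 regions, beside 57.0% of all p65 regions. At the promoter it went from 78.8 and 72.7 to 161 and 190 (1.21 ± 0.23), which turned to -0.02 under TMM. The largest gain, 2.91 kb after the start, was from 9.63 and 6.53 to 68.1 and 73.2 (3.11 ± 0.43, adjusted p = 0.00011; 1.88 under TMM). Gains 1.25 kb (1.5 ± 0.32) and 3.62 kb (1.59 ± 0.29) after it were not called under TMM. p300 fell 11.71 kb before the start, from 44.5 and 28.3 to 13.3 and 15.1 (-1.35 ± 0.40, adjusted p = 0.00743), under 2-fold without Veh replicate 1 (-0.99) and lost without KLA replicate 1. Under TMM alone p300 was also called lower at the promoter (-0.49 in the fit reported, -1.01 under TMM). The same held 1.20 kb (-0.80, then -1.33) and 2.06 kb (-0.98, then -1.49) after the start.

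The 3 genes of the class II chains gained p65. H2-Eb1, 0.98 kb before its start, rose from 15.8 and 18.6 to 114 and 130 (2.82 ± 0.32, adjusted p = 3.11e-05). H2-Ab1, 5.37 kb before its start, rose from 27.1 and 40.1 to 171 and 205 (2.48 ± 0.28, adjusted p = 2.84e-05). These calls held under TMM (1.6 and 1.26) and without each library.

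H2-Eb1 +7.66 kb rose from 12.3 and 22.4 to 77.5 and 77.3 (2.16 ± 0.39), H2-Ab1 -1.48 kb from 27.1 and 36.4 to 121 and 145 (2.07 ± 0.29), and H2-Aa -8.57 kb from 41.1 and 55.9 to 152 and 177 (1.76 ± 0.26). Changes under TMM were 0.95, 0.84 and 0.54 in the same order, under 2-fold. The windows of these regions all hold κB letters, and those of H2-Ab1 and H2-Aa are printed above. The windows of the H2-Eb1 and H2-Ab1 gains that held under TMM have 0 κB matches each. The Cd74 promoter window has 2, where the p65 change was -0.02 under TMM. The Ciita +8.5 kb window has 1, and its p65 gain held under TMM. H2-Aa 5.96 kb before its start rose from 24.5 and 28.9 to 55.4 and 81.4 (1.35 ± 0.36; 0.13 under TMM). H2-Eb1 7.06 kb before its start was 8.76 and 0 with Veh and 28.0 and 34.9 with KLA (2.79 ± 0.81), not called under TMM (1.55, adjusted p = 0.15) and lost without either KLA library. With a Veh library at 0, its change ran from 1.83 to 8.41 as each library was left out.

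H2-Aa, 6.71 kb after its start, was the exception, with p65 at 16.6 and 14.9 with Veh and 2.67 and 2.74 with KLA (-2.50 ± 0.61, adjusted p = 0.00427). Its central 200 bases are a run of near-repeated short units, so reads may be misplaced and values there are uncertain. No other factor had a region there. The region lay at few tags, and its call was lost without either KLA library. The edgeR fit with a term for replicate number also lost it (adjusted p = 0.079). With Cd74 -14.4 kb it made 2 of 33 member regions called lower for p65, beside 5.43% of all. Under TMM the p65 split was 7 higher and 4 lower, beside 14540 and 11205 of all 52629 p65 regions.

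**Figure D5:**
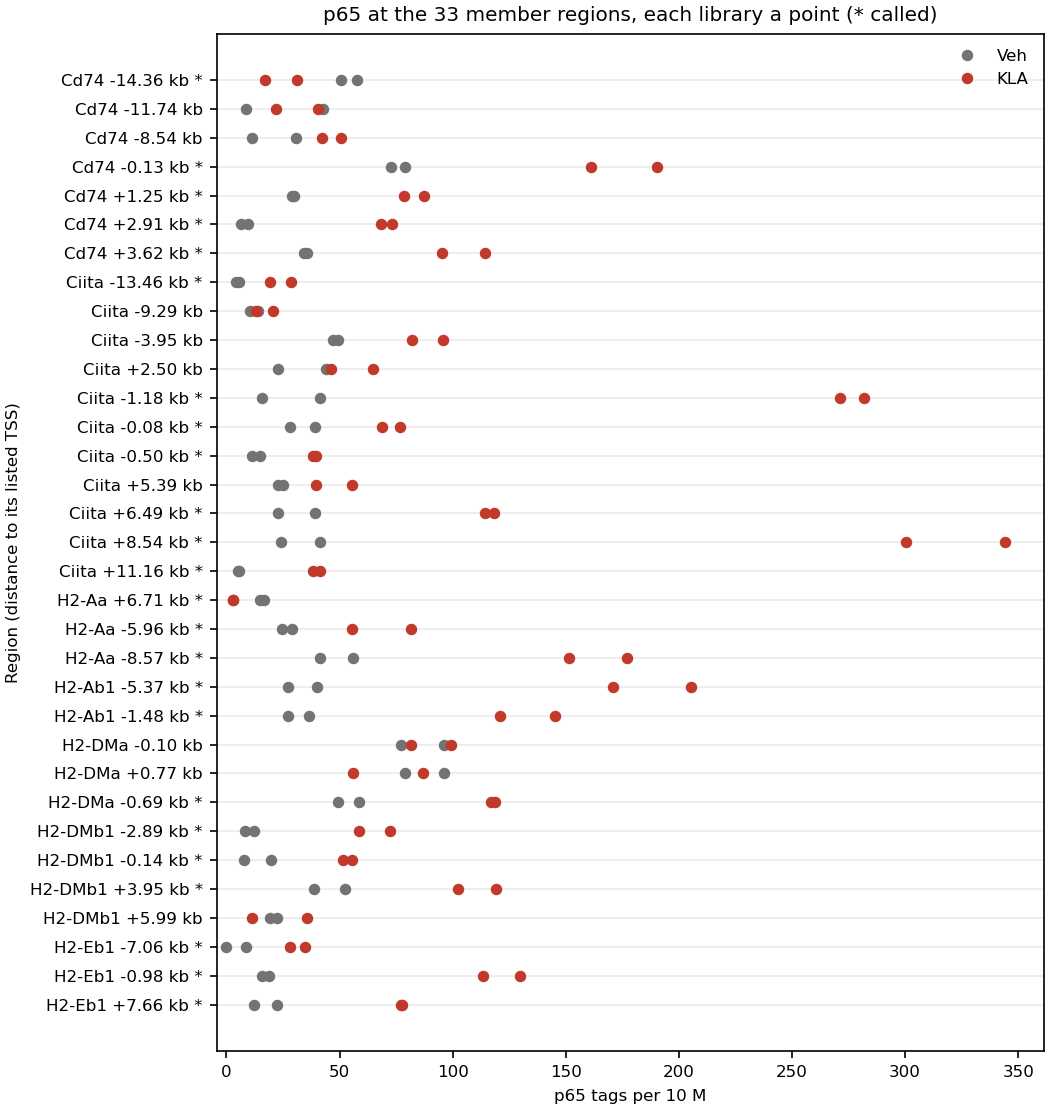
p65 tags per 10 M (x axis) in each library at the 33 member regions, by gene and distance to the listed start (y axis), grey for Veh and red for KLA; asterisks mark calls. Ciita +8.54 kb and Ciita -1.18 kb reach 344 and 282, and Cd74 -14.36 kb and H2-Aa +6.71 kb are lower with KLA.

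NCoR at H2-Eb1 was 43.0 and 33.0 with Veh and 11.3 and 7.61 with KLA 6.65 kb after the start (-2.0 ± 0.49, adjusted p = 0.00703), and 4.78 and 0, then 16.2 and 24.2, 7.08 kb before it (3.04 ± 0.84, adjusted p = 0.013). Both were lost without either KLA library. The size of the second rests on the Veh library at 0, since it ran from 2.07 to 7.60 as each library was left out. p300 at H2-Eb1 +7.70 kb rose from 17.6 and 20.4 to 41.9 and 48.1 (1.25 ± 0.34, adjusted p = 0.00448; 0.72 under TMM), a call lost without KLA replicate 2.

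PU.1 bound most at H2-Ab1 -5.53 kb, with 331 and 398 with Veh and 449 and 461 with KLA (0.33 ± 0.08, adjusted p = 0.000184, under 2-fold). No PU.1 region of H2-Aa, H2-Ab1 or H2-Eb1 was called, though H2-Aa -8.65 kb was called higher under TMM (0.86 in the fit reported, 1.28 under TMM). At H2-Ab1 -5.45 kb NCoR went from 60.9 and 88.3 to 147 and 107 (0.76 ± 0.28, adjusted p = 0.0441, under 2-fold).

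At the genes of the H2-DM dimer, p65 rose 0.14 kb before H2-DMb1, over the promoter printed above, from 7.88 and 19.6 to 51.4 and 55.4 (1.96 ± 0.47, adjusted p = 0.0037; 0.76 under TMM). At H2-DMb1 +3.95 kb it rose from 38.5 and 52.2 to 102 and 119 (1.29 ± 0.29; 0.07 under TMM), and at H2-DMa -0.69 kb from 58.7 and 49.4 to 119 and 117 (1.12 ± 0.26; -0.11 under TMM). The promoter and H2-DMa calls were lost without either KLA library, and the +3.95 kb call without KLA replicate 2. At the first H2-DMa start p65 was 96.3 and 77.4 with Veh and 81.5 and 99.2 with KLA (0.06 ± 0.26, adjusted p = 0.863), and it was called lower there under TMM (-1.18, adjusted p = 0.0021).

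The copied H2-DMb1 regions differed in p65. The -2.89 kb copy is annotated as intron though it lies before the H2-DMb1 start. It was 12.3 and 8.39 with Veh and 58.8 and 72.5 with KLA (2.65 ± 0.42, adjusted p = 0.000301, and 1.42 under TMM). The +5.99 kb copy was 19.3 and 22.4 with Veh and 11.4 and 35.6 with KLA (0.17 ± 0.57, adjusted p = 0.804). p300 rose at both, from 22.6 and 24.3 to 55.8 and 47.6 (1.14 ± 0.31) and from 12.5 and 12.5 to 29.2 and 30.3 (1.24 ± 0.41), with neither called under TMM and each lost without KLA replicate 1.

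Intergenic signal 12.0 kb after the H2-DMb1 start fell. p300 went from 47.0 and 65.7 to 14.3 and 15.7 (-1.90 ± 0.34, adjusted p = 0.000161), and NCoR from 31.1 and 34.1 to 6.48 and 11.1 (-1.86 ± 0.50, adjusted p = 0.0115), the latter lost without either KLA library. PU.1 (-0.94 ± 0.15) and PGC1β (-1.16 ± 0.45) were below 0 there and not called, though PGC1β was called lower under TMM (-1.28, adjusted p = 0.024). p300 rose at H2-DMa +9.07 kb from 10.0 and 7.89 to 29.2 and 28.6 (1.68 ± 0.44, adjusted p = 0.00362), a call lost without either KLA library. PGC1β was highest at H2-DMa +9.90 kb, annotated as 5' UTR, with 219 and 223 with Veh and 171 and 194 with KLA (-0.27 ± 0.23, adjusted p = 0.422). With DMSO it rose at H2-DMb1 +3.97 kb, from 57.7 and 43.7 to 118 and 116 (1.19 ± 0.38, adjusted p = 0.0307), a call lost without each of the 4 libraries and under TMM (0.71, adjusted p = 0.22).

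Counted over all member regions, NCoR had 3 of 28 called higher (23.4% of all regions) and 5 lower (16.7%). HDAC3 had 5 of 27 higher (27.5%) and 1 lower (11.3%). Under TMM 2 were higher and 3 lower, beside 11800 and 7913 of all 48502 HDAC3 regions. p300 had 6 of 31 higher (42.1%) and 5 lower (12.9%). Under TMM 2 were higher and 11 lower, beside 22267 and 16245 of all 67998 p300 regions. Fosl2 had 1 of 20 higher (11.4%), PGC1β 2 of 18 (16.4%) and, with DMSO, 4 of 28 (16.4%), and ERK1 1 of 14 higher (10.3%) and 1 lower (2.53%). Median log2 changes of member regions, beside all regions, were 1.5 against 1.46 for p65, 0.12 against 0.10 for NCoR, 0.11 against 0.27 for HDAC3, 0.08 against 0.65 for p300 and -0.29 against -0.41 for PU.1. The member shares for p65 and PGC1β with DMSO lay near those of all regions, and for NCoR, HDAC3 and p300 the share called higher was below it.

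With the ERK inhibitor, NCoR fell at 10 of 28 member regions and rose at 0, where 48.6% of all regions fell. At Ciita -1.21 kb it was 154 and 128 with KLA and 47.3 and 37.9 with ERKi and KLA (-1.72 ± 0.27, adjusted p = 0.000329). At H2-Ab1 -5.45 kb it was 147 and 107, then 42.3 and 52.6 (-1.42 ± 0.30, adjusted p = 0.00192), and at Ciita -3.98 kb 222 and 170, then 83.7 and 73.3 (-1.32 ± 0.23, adjusted p = 0.000615). All regions together had a median of -1.2, and under TMM 0 of these 10 were called, with changes at the named regions of -0.56, -0.25 and -0.15. TMM instead called Ciita +6.43 kb higher (0.01 in the fit reported, 1.18 under TMM, adjusted p = 0.040). The NCoR libraries with ERKi carry another date in their names than those with KLA alone, so the inhibitor and the date cannot be told apart here.

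At Ciita +8.56 kb NCoR was 198 and 163 with KLA and 108 and 123 with ERKi and KLA (-0.64 ± 0.22, adjusted p = 0.0256, under 2-fold). Cd74 -14.36 kb stayed low, at 12.2 and 13.8, then 17.8 and 9.48 (0.07 ± 0.52, adjusted p = 0.917). Both changes are relative to library totals, by which all regions had a median of -1.2, against -0.04 under TMM. Both values thus depend on the scaling used. The KLA libraries are those of the comparison with Veh. PGC1β had 0 of 28 member regions called by edgeR with the ERK inhibitor, where 0.286% of all regions were called in either direction; 8 had an unadjusted p under 0.05, and DESeq2 called 1. At Ciita +8.53 kb PGC1β was 111 and 65.5 with DMSO and KLA and 167 and 203 with ERKi and KLA (1.09 ± 0.37, adjusted p = 0.178), and at Ciita -1.23 kb 111 and 130, then 51.6 and 60.8 (-1.09 ± 0.42, adjusted p = 0.238).

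The p300 Day0 replicate 2 library held 4.70 M tags, against 11.4 M in replicate 1. It had 0 tags in 3 of 7 member regions and in 24.92% of all regions, against 0 of 7 and 6.5% in replicate 1. The p300 values at Day0 thus rest on unlike libraries. During osteoclast differentiation p300 was called higher at Day4 in 4 of 7 member regions, where 62.2% of all regions were. At Ciita +8.55 kb it was 4.40 and 0 at Day0 and 53.8 and 29.5 at Day4 (3.76 ± 0.86, adjusted p = 0.00315). At H2-Aa -5.99 kb it was 2.64 and 0, then 30.3 and 21.6 (3.73 ± 0.83, adjusted p = 0.0027), at Ciita +6.38 kb 1.76 and 8.52, then 28.4 and 20.4 (2.61 ± 0.76), and at H2-DMa -0.09 kb 15.8 and 23.4, then 55.7 and 46.5 (1.43 ± 0.52). None of the 4 was called under TMM, where H2-DMa -0.09 kb turned to -0.17 and the others were 2.16, 2.15 and 1.02. TMM instead called H2-DMa -0.67 kb lower at Day4 (-0.13 in the fit reported, -1.74 under TMM, adjusted p = 0.035). With a Day0 library at 0, the change at Ciita +8.55 kb ran from 3.22 to 8.06 and at H2-Aa -5.99 kb from 3.25 to 7.38 as each library was left out. ERK1 had 1 of 10 called higher (2.33% of all), at Ciita -0.34 kb, from 0 and 3.15 to 28.0 and 28.7 (4.16 ± 1.01, adjusted p = 0.0379; not called under TMM), with a range of 3.11 to 7.65 as each library was left out. The second ERK1 Day4 library is titled replicate 2 and described as replicate 3 with another date. Its description also lacks the NCoRWT label that the first Day4 library and both Day0 libraries of ERK1 carry.

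In the NCoR flox/flox table, H3K27ac was counted at 2 tested regions, both in Ciita. The region 6.48 kb after the third start stood in WT cells at 14.5 and 10.2 (Veh) and at 9.43 and 22.7 (KLA). NKO cells had 5.16 and 11.0 (Veh) and 20.7 and 20.1 (KLA). The KLA change was 0.38 ± 0.51 in WT (adjusted p = 0.681) and 1.30 ± 0.52 in NKO (adjusted p = 0.0893), and the difference between them was 0.92 ± 0.73 (adjusted p = 0.608). Under TMM the NKO change was called.

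At 8.48 kb, under the region where 7 factors gained, WT cells had 1.89 and 4.58 (Veh) and 8.80 and 0.689 (KLA) H3K27ac tags per 10 M. NKO cells had 4.42 and 8.13 (Veh) and 11.1 and 7.64 (KLA). These are few tags, and a change was not detectable at this depth. Neither region was called by edgeR or DESeq2 with KLA in WT (10.2% of all regions called in either direction) or NKO (10.7%), between genotypes with Veh (1.00%) or KLA (0.789%), or in the interaction (0.697%), and 1 of these tests, KLA in NKO at 6.48 kb, had an unadjusted p under 0.05. H3K27ac was counted over open chromatin regions only, so genes without a row are not shown to lack the mark.

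The other 20 genes of the antigen presentation pathway listed with the processing moved with KLA as follows. p65 rose at 75 of 123 regions (61%, beside 57.0% of all regions) and fell at 3 (2.44% beside 5.43%). NCoR rose at 31 of 122 (25.4% beside 23.4%) and fell at 11 (9.02% beside 16.7%), and p300 rose at 54 of 149 (36.2% beside 42.1%) and fell at 20 (13.4% beside 12.9%). These shares were near or below those of all regions. H2-Ob, a chain of the H2-O inhibitor of H2-DM, had p65 at 17.5 and 28.0 with Veh and 207 and 234 with KLA at the region within 2 kb of its start (3.28 ± 0.29, adjusted p = 5.3e-06), and NCoR at 58.6 and 43.5, then 128 and 120 (1.28 ± 0.27, adjusted p = 0.00328). Ctsl, which encodes the lysosomal protease cathepsin L, had p65 at 42.0 and 64.3, then 23.4 and 17.1 at its region within 2 kb (-1.39 ± 0.41, adjusted p = 0.0119). Of all 6 Ctsl p65 regions, 3 were called higher and 1 lower.

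Over the same list, H3K27ac rose at 7 of 44 regions (15.9%, beside 26.9% of all regions) with RGFP966 and KLA against DMSO and KLA. It fell at 10 (22.7%, beside 28.1%) with DMSO and KLA against DMSO and Veh.

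By summed H3K27ac over 22 libraries, centred within each table, Cd74 was the only member with regions in all 3 tables. The genes most like it among 6234 were Mapkapk3 (r = 0.78), Tle1 (r = 0.745), 8030462N17Rik (r = 0.743), Slc30a4 (r = 0.711) and Mir3965 (r = 0.692). The libraries share tables and treatments, so these values describe likeness alone. The 1 Cd74 region in the NCoR flox/flox table, 8.59 kb before the start, was at 0 in 6 of 8 libraries (WT Veh had 1.89 and 4.07) and did not pass the filter, so the likeness rests mainly on the other 2 tables.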

How the data were processed

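ChIP-seq tags of 70 libraries (35 groups of 2 biological replicates, per the labels) in 15 tables were analysed; 30 input libraries were not analysed here. The deposited values are raw counts of tags per region: the authors aligned reads to mm10 with Bowtie2 and counted them with HOMER, per the file headers with at most 3 tags per position and no adjustment, over merged peaks for the factors and over open chromatin regions for H3K27ac (as given in the NCoR flox/flox table, 1000 bp wide in the RGFP966 and PGC1b tables). The submitters' notes also name DESeq2.

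Counts were scaled by the totals in the headers. Each table was fitted once with edgeR 4.0.16 (R 4.3.3, quasi-likelihood F-test), keeping regions with at least 4 tags in 1 library (16 for H3K27ac), with Benjamini-Hochberg adjustment over all regions tested; the SE is the log2 change divided by the square root of F. The 25 comparisons were repeated with TMM factors, DESeq2 1.42.0, no filter, a replicate block and each library left out. The NCoR Veh and KLA libraries are in both NCoR tables. Fits were tested on simulated data.

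Regions named are, per gene and table, the highest, the nearest to the start and those called; of these the ones the results turn on are printed. The pathway list was H2-Oa, H2-Ob, H2-DMb2, H2-Eb2, Rfx5, Rfxap, Rfxank, Nfya, Nfyb, Nfyc, Creb1, Ctss, Ctsl, Lgmn, Ifi30, March1, Irf1, Ifngr1, Ifngr2 and 1 gene that is not reported here, each taken for naming by its region within 2 kb of the start. The genes and lists were chosen with earlier results of these data known. Of the member regions, 93.6% lay within 10 bp of the distance recomputed from RefSeq on GRCm38.p6. Libraries of the same replicate number showed no shared deviations, with 31 correlations from -0.027 to 0.026. Counting noise can hide a shared source, so this does not exclude pairing.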

Additional observations from a re-analysis of the deposited data

How the results depend on the processing

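Without the filter on low counts all 83 called changes kept their direction and call. Of these, 40 kept both under TMM, 37 lost the call and 6 reversed; under DESeq2 the numbers were 38, 40 and 5. Leaving out 1 library kept the call in 231 of 332 cases, and the lone library of a group was then assumed to vary like the others. The cause was not tested.

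Member regions called under TMM were 11 for p65 (22 higher and 2 lower in the fit reported), 4 for Fosl2, 3 for PU.1, 4 for PGC1β, 1 for ERK1, 1 for NCoR with ERKi, 1 for p300 at Day4 (lower), 0 for ERK1 at Day4, 1 for H3K27ac with KLA in NKO and 1 for LysMCre against flox with KLA. Over all regions TMM called 25745 of 52629 for p65, 8960 of 31283 for Fosl2 and 9994 of 50690 for PU.1. It called 11397 of 45675 for PGC1β, 3363 of 27931 for ERK1 and 3931 of 57573 for NCoR with ERKi. At Day4 it called 2544 of 20143 for p300 and 0 of 14957 for ERK1. For H3K27ac it called 1778 of 18504 with KLA in NKO and 751 of 25197 for LysMCre against flox with KLA. Member regions called under DESeq2 were 11 for p65, 6 for Fosl2, 3 for PU.1, 1 for ERK1, 1 for PGC1β with ERKi, 1 for NCoR with ERKi, 0 for p300 at Day4, 0 for ERK1 at Day4 and 0 for H3K27ac with KLA in PGC1b flox/flox cells. Over all regions DESeq2 called 24723 for p65, 9934 for Fosl2, 9961 for PU.1 and 3603 for ERK1. It called 560 of 53474 for PGC1β with ERKi, 5307 for NCoR with ERKi, 787 for p300 at Day4 and 0 for ERK1 at Day4. For H3K27ac with KLA in PGC1b flox/flox cells it called 5650. With the replicate block, though the numbers showed no pairing of the libraries, the count was 0 for Fosl2, 1 for ERK1 and 2 for p300 at Day4, and 10 of 83 calls were lost.

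Leaving out 1 library gave 2 to 11 calls for NCoR, 1 to 10 for HDAC3, 13 to 27 for p65, 0 to 10 for Fosl2, 6 to 7 for PU.1, 0 to 7 for PGC1β, 0 to 2 for ERK1, 8 to 13 for p300, 3 to 4 for PGC1β with DMSO, 2 to 10 for NCoR with ERKi, 0 to 5 for p300 at Day4 and 0 to 2 for ERK1 at Day4. It gave 0 to 1 for LysMCre against flox with KLA and for the PGC1b interaction.

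Reversed log2 changes, under TMM and DESeq2, were 0.0364 and 0.0498 at H2-Aa -8.38 kb and 0.0760 and 0.0895 at H2-DMb1 +3.93 kb (NCoR with ERKi), -0.17 and -0.10 at H2-DMa (p300 at Day4), -0.10 and -0.0688 at the second Ciita start and -0.11 and -0.0727 at H2-DMa -0.68 kb (p65), and -0.0204 under TMM at the Cd74 promoter (p65). In LysMCre cells with KLA the Cd74 windows turned to 0.41 and 0.40 upstream (-0.85 to 0.21 without each library) and 0.24 and 0.24 at 3.64 kb. LysMCre against flox with KLA turned at 3.64 kb from 0.00 to 0.39 and 0.39, and ran from -0.31 to 0.26 without each library (0.24 without LysMCre KLA replicate 1). Ciita +6.48 kb H3K27ac ran from -0.38 to 0.89 with KLA in WT, and from -0.15 to 1.11 for NKO against WT with KLA, without each library. H3K27ac at the Ciita windows, Fosl2 after KLA and p300 at Day0 are limited by depth.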
